A study of Homo sapiens with 23 samples.

Results

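Interferon-stimulated genes were examined in A549 cells after depletion of THUMPD3. The members were 46 genes given by name, with no threshold on a measured value in the rule, although the list was drawn up with earlier results of these data known. All 46 were found among the 61806 genes counted in the first libraries and among the 42901 genes counted in the deep libraries. A549 is an established human line of lung carcinoma epithelial cells, and its genotype was labelled WT in every sample. THUMPD3 is an m2G methyltransferase that acts on tRNA. Expression was measured by RNA-sequencing of total RNA from which ribosomal RNA had been removed, in 23 libraries. In the siTHUMPD3 group (3 libraries), cells were transfected with siD3 #3, an siRNA against *THUMPD3*, and harvested on day 5, next to siControl (2 libraries analysed here, although the methods state 3 replicates per condition). In the shD3 #1 and shD3 #4 groups (3 libraries each), shRNAs against *THUMPD3* were expressed from a doxycycline-inducible lentiviral vector in puromycin-selected cells harvested on day 6, next to sh1Control and sh4Control (3 libraries each). The methods call the control samples untreated and do not state what the shRNA controls received. The other 6 libraries, sequenced more deeply, hold shD3 #1 and sh1Control again (3 libraries each), and the labels do not say whether their RNA came from the same cultures. The use of siRNA or shRNA and the day of harvest cannot be told apart in any comparison between the siRNA and the shRNA samples. The knockdown was also deepest with the siRNA, and its depth cannot be told apart from them either. The sources do not say whether each shRNA line is 1 pool of transduced cells.

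Type I and type III interferons bind receptors at the cell surface and activate the kinases JAK1 and TYK2, which phosphorylate STAT proteins. The complex ISGF3, of which STAT2 and IRF9 are subunits, then binds interferon-stimulated response elements (ISREs) in promoters. The genes switched on in this way encode proteins that block virus entry, translation, replication and release, and epithelial cells of the lung can both make and answer interferon. Many of the same promoters can also be bound by IRF1, IRF3 and IRF7.

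The knockdown was checked first. Relative to its own controls, *THUMPD3* was left at 17.1% in siTHUMPD3, 50.6% in shD3 #1, 31.0% in shD3 #4 and 49.6% in the deep shD3 #1 libraries, with no overlap between the groups. The exact two-sided permutation p, with the smaller tail doubled, was 0.1 in each shRNA comparison and 0.2 for the siRNA. These are the smallest values that this form of the test allows for 3 against 3 and 3 against 2 libraries. A first library held between 9854294 and 22101059 counts and a deep one between 27285889 and 59974740. Among the siTHUMPD3 libraries, replicate 3 stood apart. Its counts differed from those of replicates 1 and 2 by a chi-square per degree of freedom of 30.4 and 34.6, against 3.76 between replicates 1 and 2. The summed epithelial marker level of siTHUMPD3 replicate 3 was also the lowest of all first libraries, at 3741 cpm (TMM-normalised counts per 1000000) against 5263 to 6567 cpm in the other siRNA-experiment libraries. This replicate was the lowest of the 3 libraries in 23 of the 28 members that rose with siD3 #3. Without it, 29 members rose, and they included all 28. The epithelial marker keratin 8 (*KRT8*) was at 1260 cpm or more in every first library. Of the 5 epithelial markers, none was called with siD3 #3. *EPCAM* rose and *CDH1* fell with shD3 #1, *KRT7* fell with shD3 #4, and *EPCAM*, *KRT7* and *KRT8* rose and *CDH1* fell in the deep libraries. Their sum was 5837 to 6167 cpm in sh1Control and 7337 to 7582 cpm in shD3 #1, 6745 to 6974 cpm in sh4Control and 4801 to 5236 cpm in shD3 #4, and 4720 to 5287 cpm in the deep controls and 6834 to 6912 cpm in deep shD3 #1. Of the markers of other cells, *CD3E* (T cells) was at 0 in every first library, *PTPRC* (all leukocytes) reached at most 0.229 cpm and *CLEC4C* (plasmacytoid dendritic cells) at most 0.0586 cpm. The summed level of the 5 leukocyte markers was 5.61 to 6.32 cpm in siControl and 11.7 to 16.6 cpm in siTHUMPD3, and *ITGAM*, which encodes an integrin of myeloid cells, went from 2.7 and 3.52 cpm to between 8.22 and 13.9 cpm. In shD3 #1 the same sum was 2.95 to 4.16 cpm against 5.10 to 6.49 cpm in sh1Control, and in the deep libraries 5.46 to 6.62 cpm against 9.03 to 10.5 cpm. The 3 fibroblast markers summed to 2.52 and 3.62 cpm in siControl and 4.51 to 5.80 cpm in siTHUMPD3, and to 3.75 to 5.25 cpm in sh1Control and 6.59 to 8.16 cpm in shD3 #1. They overlapped between sh4Control (3.12 to 6.52 cpm) and shD3 #4 (4.97 to 6.57 cpm), and were at 25.6 to 28.0 cpm in deep shD3 #1 against 7.72 to 8.41 cpm in its controls. Nearly all of it was *COL1A1*, which was called higher in both sets of shD3 #1 libraries. The 3 endothelial markers summed to 0.142 and 0.224 cpm in siControl and 0.865 to 1.58 cpm in siTHUMPD3, to 0.318 to 0.484 cpm in sh4Control and 0.851 to 1.54 cpm in shD3 #4, and to 0.318 to 0.357 cpm in the deep controls and 0.692 to 1.28 cpm in deep shD3 #1. In shD3 #1 (0.260 to 0.413 cpm) they overlapped sh1Control (0.204 to 0.965 cpm). The part of these levels in the results was not tested. In bulk RNA, more cells that express a gene and more RNA per cell cannot be told apart.

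The promoter sequences of the members are shown because they hold the elements that interferon signalling is known to act on. RefSeq promoters (GRCh38.p14, 250 bases before to 50 bases after a transcription start) were listed for 38 of the 46 members. The ISRE core, searched as GAAANNGAAA on both strands (TTTCNNTTTC on the other), was present in 26 of these 38 (68.4%), against 4.38% of the 27305 genes with a listed promoter. The core of the gamma-activated site (GAS), TTCNNNGAA, which reads the same on both strands, was present in 10 members (26.3%) and in 9.38% of all genes. The 45 distinct ISRE core matches, with that of *DTX3L* and *PARP9* counted for each gene, lay between 196 bases before and 23 bases after a start, 42 of them before it, and 14 members had 2 or more. ISRE cores share bases with each other in *ISG15*, *HERC5*, *TRIM21* and *BST2*, and with a GAS core in *BST2*, *IFI27*, *MX1*, *IFITM1* and *EPSTI1*. Of each window below, the core is in capitals, and the sequence is that of the coding strand of the gene. *IFI44* and *LGALS3BP* rose in every comparison. The promoter of *IFI44L*, the neighbour of *IFI44*, holds the same run of bases a second time, with the core at positions -164 and -73 from the start. *ISG15*, *IFIT1* and *MX1* rose with the siRNA and shD3 #1, *IFIT1* with shD3 #4 as well, *BST2* with shD3 #1, and *HERC5* fell with both shRNAs. *DTX3L* and *PARP9* start back to back and share 1 core. *IRF1*, which rose with the siRNA only, carries a GAS core.
IFI44: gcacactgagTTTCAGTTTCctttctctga
IFI44L: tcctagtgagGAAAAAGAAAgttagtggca
LGALS3BP: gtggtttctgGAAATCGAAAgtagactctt
ISG15: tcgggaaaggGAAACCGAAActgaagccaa
IFIT1: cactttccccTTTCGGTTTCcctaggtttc
MX1: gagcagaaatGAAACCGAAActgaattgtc
BST2: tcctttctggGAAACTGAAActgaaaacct
HERC5: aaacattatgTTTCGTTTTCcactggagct
DTX3L: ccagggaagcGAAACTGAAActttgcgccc
PARP9: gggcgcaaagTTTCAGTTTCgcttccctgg
IRF1: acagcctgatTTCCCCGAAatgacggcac
The windows are at chr1:78649761-78649790 (*IFI44*, plus strand), chr1:78620274-78620303 and chr1:78620365-78620394 (*IFI44L*, plus), chr17:78979962-78979991 (*LGALS3BP*, minus), chr1:1013380-1013409 (*ISG15*, plus), chr10:89392510-89392539 (*IFIT1*, plus), chr21:41420559-41420588 (*MX1*, plus), chr19:17405741-17405770 (*BST2*, minus), chr4:88457035-88457064 (*HERC5*, plus), chr3:122564322-122564351 (*DTX3L* plus, *PARP9* minus) and chr5:132490879-132490907 (*IRF1*, minus). Neither core was found for *CMPK2*, *HELZ2*, *HERC6*, *SAMD9L*, *SP100*, *STAT2*, *TRIM25*, *UBE2L6* and *XAF1*, which says only that these letters are not in those windows. Among the members tested with siD3 #3, 14 of 23 with an ISRE core and 10 of 12 without one rose, with median log2 fold changes of 0.94 and 0.92. No promoter was listed for *IFIT2*, *IFITM2*, *MX2*, *USP18*, *PARP10*, *TRIM22*, *IRF7* and *LAMP3*.

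**Figure D1:**
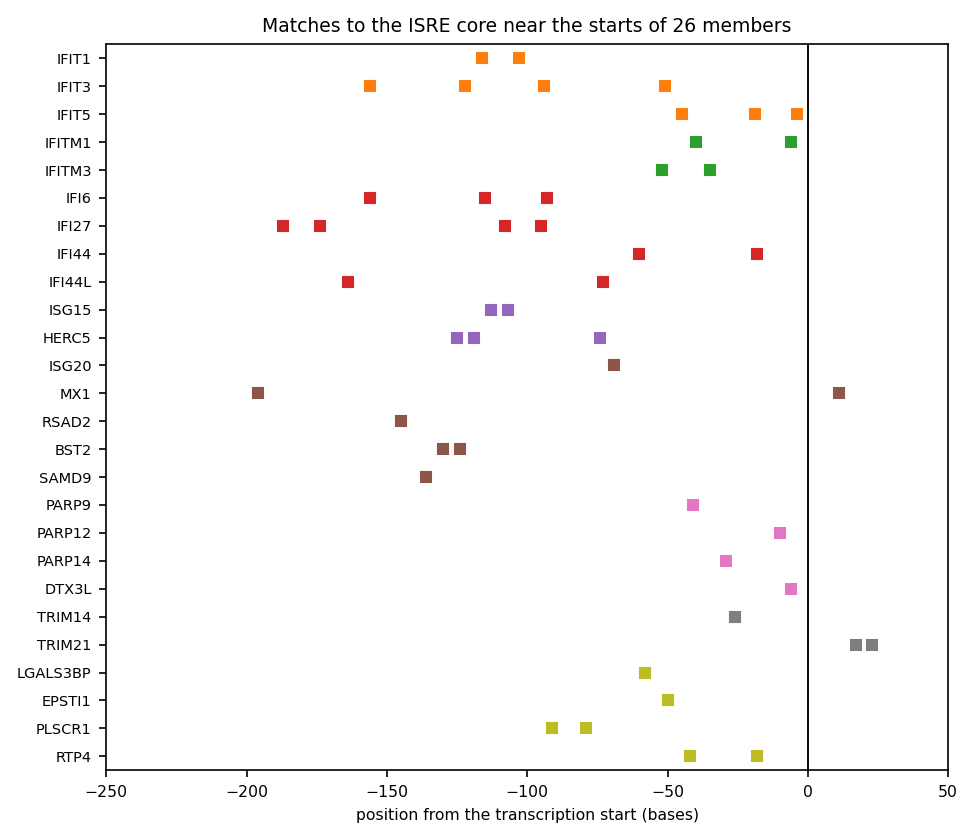
Position of each ISRE core match (squares) from the transcription start (vertical line at 0) in bases, for the 26 members that hold one. Colours mark the same gene groups as in the plot of log2 fold changes, and genes with several listed starts are drawn at each of them. All matches lie between -196 and 23 bases, and most lie before the start.

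To determine how far each knockdown moved these genes, each was set against its own control libraries in a fit of edgeR (quasi-likelihood test) over all genes tested. A gene was called where the p adjusted by Benjamini-Hochberg was under 0.05 and the fitted level differed by 1.5-fold or more. The libraries of a group are labelled as biological replicates without saying whether they came from separate cultures, so that the p-values measure only the spread between these libraries. With siD3 #3, 28 of the 42 members tested rose and 1 fell, whereas 12.5% of all 17032 genes tested rose and 9.42% fell. The median log2 fold change was 1.01 for the members and 0.03 for all genes. With shD3 #1, 11 of 39 rose and 2 fell (14.5% and 14.6% of 16456 genes). With shD3 #4, 10 of 37 rose and 1 fell (8.00% and 4.49% of 16493 genes). In the deep libraries, shD3 #1 raised 9 of 39 and lowered 3 (15.0% and 14.1% of 18763 genes). The median log2 fold change of the members was 0.22, 0.23 and 0.28 in these 3 shRNA comparisons and -0.01, 0.01 and -0.01 for all genes. Levels of the members summed to 715 and 740 cpm in siControl and to 1107 to 1351 cpm in siTHUMPD3. The sum was 645 to 684 cpm in sh1Control and 846 to 965 cpm in shD3 #1. It was 634 to 686 cpm in sh4Control and 780 to 809 cpm in shD3 #4. *LGALS3BP* had the highest level per kilobase in each first control group (67.9 to 81.8 cpm per kb of its canonical transcript), and *RTP4* had at most 1 read in any library.

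**Figure D2:**
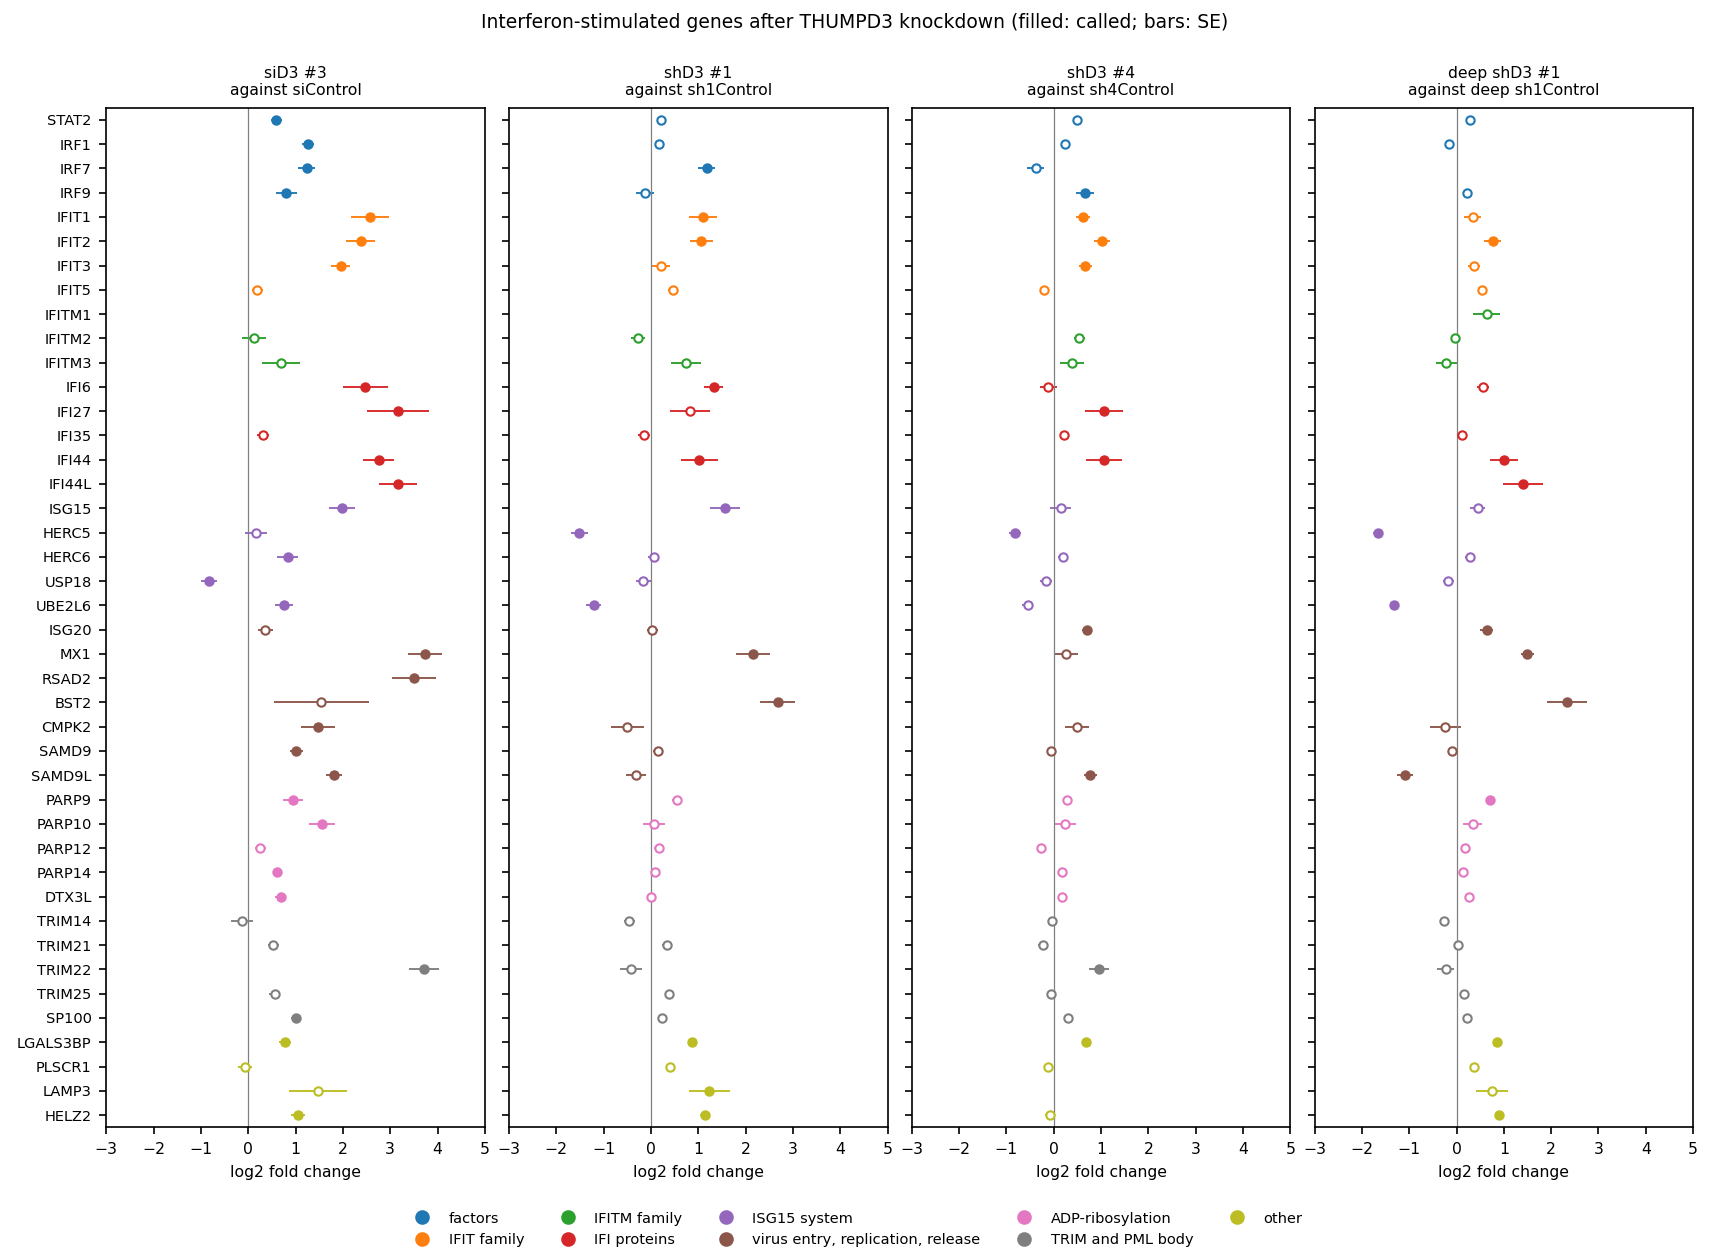
Log2 fold change of each tested member (points) with its standard error (bars) in the 4 comparisons, ordered and coloured by role. Filled points passed both thresholds, open points did not, and a missing point was not tested. *XAF1*, which had no reads in its siRNA controls, is left out. With siD3 #3, 27 of the points shown are filled to the right of 0, against 11, 10 and 9 in the shRNA comparisons.

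Only *IFI44*, *IFIT2* and *LGALS3BP* rose in all 4 comparisons. Another 12 members rose with siD3 #3 and in 1 or 2 shRNA comparisons, 11 rose with siD3 #3 and in no shRNA comparison, and 3 rose in shRNA comparisons only. The share of all genes with each of these patterns was not computed. The counts therefore sort the members and do not set them apart from other genes. *UBE2L6* and *SAMD9L* moved in opposite directions, *HERC5* and *USP18* fell without rising anywhere, and 10 members were called in no comparison. *MX2*, *EPSTI1* and *RTP4* had too few reads to be tested in any. *IFI27*, *IFI44L*, *IFITM1*, *RSAD2*, *XAF1*, *BST2*, *IRF7* and *LAMP3* were tested in only some of the 4, and a missing call there is no sign of no change. The 4 comparisons share no libraries. No test here shows that a member is particular to 1 knockdown unless the difference between knockdowns is given.

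*LGALS3BP* encodes a secreted glycoprotein that binds galectins. It was at 190.2 and 170.1 cpm in siControl and at 331, 323 and 266 cpm in siTHUMPD3. It was at 164, 161 and 172 cpm in sh1Control and at 294, 292 and 304 cpm in shD3 #1, and at 129.5, 148 and 171 cpm in sh4Control and 229, 236 and 245 cpm in shD3 #4. In the deep libraries it went from between 286 and 291 cpm to 537, 519 and 501 cpm. Every knockdown library lay above every library of its controls. The log2 fold changes were 0.77 ± 0.12 (SE), 0.86 ± 0.06, 0.68 ± 0.08 and 0.85 ± 0.04 for siD3 #3, shD3 #1, shD3 #4 and the deep shD3 #1 libraries (edgeR adjusted p = 0.00286, 3.87e-09, 1.11e-07 and 3.84e-10). Its changes with siD3 #3 and with the 2 shRNAs differed by -0.07 ± 0.14 and 0.10 ± 0.14 (adjusted p = 0.707 and 0.627). Without sh4Control replicate 1, the change with shD3 #4 was 0.58 and just under the threshold.

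*IFIT2* belongs to the family of tetratricopeptide repeat proteins that bind viral RNA and hold back its translation. It was at 2.40 and 3.41 cpm in siControl and at 17.9, 16.9 and 9.98 cpm in siTHUMPD3. It was at 2.60, 2.21 and 2.83 cpm in sh1Control and at 4.54, 4.03 and 8.17 cpm in shD3 #1, and at 2.69, 2.16 and 2.81 cpm in sh4Control and 5.29, 5.71 and 4.29 cpm in shD3 #4. The deep libraries had 1.89, 1.47 and 2.08 cpm in the controls and 3.29, 3.62 and 2.44 cpm with shD3 #1. No knockdown library overlapped its controls. The log2 fold changes were 2.38 ± 0.31, 1.07 ± 0.24, 1.02 ± 0.16 and 0.77 ± 0.19 (adjusted p = 0.00108, 0.00113, 1.66e-05 and 0.00232). The rise was larger with siD3 #3 than with shD3 #1 by 1.32 ± 0.40 and than with shD3 #4 by 1.38 ± 0.39 (adjusted p = 0.0123 and 0.0121). Both differences lost their call without siControl replicate 1, at 1.05 and 1.11.

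*IFI44*, a cytoplasmic protein of the response, had low counts in the shRNA samples. It was at 0.727 and 0.995 cpm in siControl and at 6.19, 6.97 and 4.17 cpm in siTHUMPD3, a log2 fold change of 2.75 ± 0.33 (adjusted p = 0.000719). It was at 1.12, 0.681 and 0.248 cpm in sh1Control and at 1.56, 1.03 and 1.67 cpm in shD3 #1. It was at 0.376, 0.624 and 0.265 cpm in sh4Control and at 0.614, 1.31 and 0.800 cpm in shD3 #4. In both pairs of groups, the lowest knockdown library lay below the highest control. The log2 fold changes there were 1.02 ± 0.40 and 1.06 ± 0.39 (adjusted p = 0.0384 and 0.0295). *IFI44* had 22, 12 and 5 reads in sh1Control and 7, 13 and 5 in sh4Control. In both of these comparisons it passed the filter on low counts only through the knockdown libraries. The deep libraries did not overlap, with 0.391, 0.536 and 0.361 cpm in the controls, 0.652, 0.915 and 0.997 cpm with shD3 #1, and a change of 1.00 ± 0.30 (adjusted p = 0.00927). The calls with both shRNAs in the first libraries were lost with DESeq2, at 1.07 and 1.09. They were also lost without sh1Control replicate 2 or 3 (1.02 and 0.62) or shD3 #1 replicate 1 (0.92), and without sh4Control replicate 1 or 3 (0.98 and 0.82) or shD3 #4 replicate 2 or 3 (0.71 and 1.13). The deep call was lost without deep shD3 #1 replicate 3 (0.86).

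**Figure D3:**
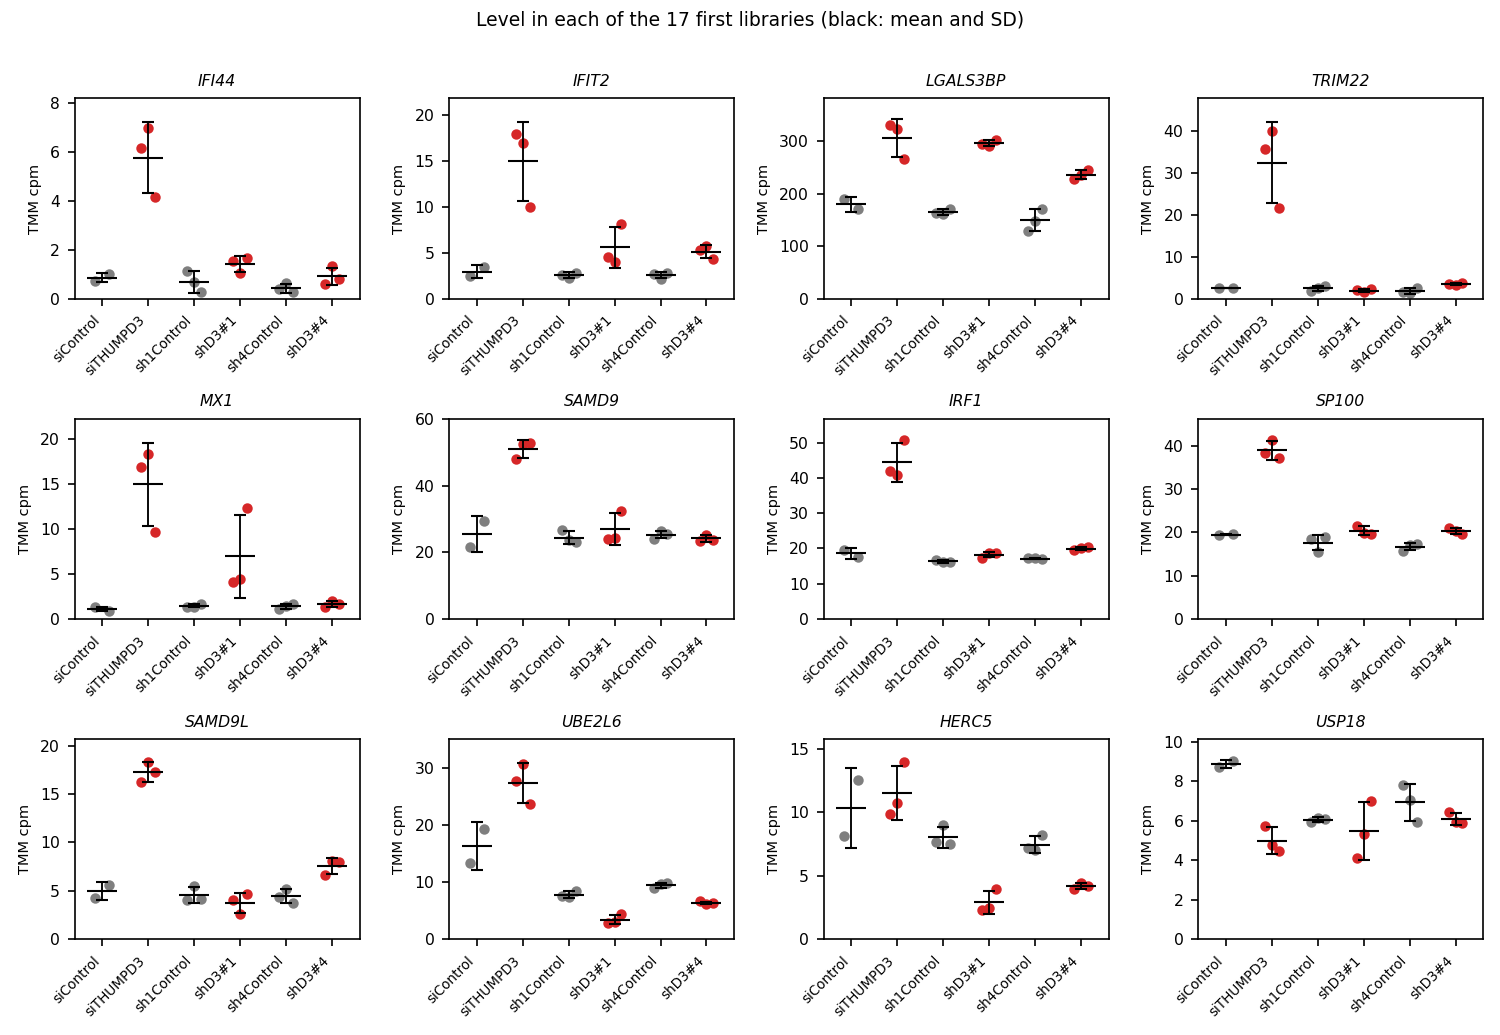
TMM-normalised level (cpm, linear axis from 0) of 12 members in each of the 17 first libraries, grey for controls and red for knockdowns. Black marks give the mean and SD (n = 2 in siControl and 3 elsewhere). *LGALS3BP* was raised in all 3 knockdowns, *SAMD9*, *IRF1* and *SP100* in siTHUMPD3, and *HERC5* was lowered in shD3#1 and shD3#4.

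The members that rose with siD3 #3 and in no shRNA comparison were *SP100*, *IRF1*, *RSAD2*, *SAMD9*, *PARP14*, *DTX3L*, *PARP10*, *STAT2*, *XAF1*, *CMPK2* and *HERC6*. These genes were set apart by their calls in the same libraries. The differences between knockdowns printed beside them, from the 1 fit of the 17 first libraries, are therefore a description of how far apart the changes lay. The difference was called against shD3 #1 for 8 of the 11 and against shD3 #4 for 5. It was called against both for 5, *HERC6*, *SAMD9*, *PARP10*, *IRF1* and *SP100*. For *PARP14*, *STAT2* and *XAF1* it was called against neither. *RSAD2* and *XAF1* are in this group for want of a test, because they had too few reads to be tested in any shRNA comparison. They passed the filter on low counts with siD3 #3 only through the siTHUMPD3 libraries, where they were high. With at least 10 counts required in every library, neither was tested. The same holds for *IFI27* (5 and 3 reads in siControl, 66, 46 and 20 in siTHUMPD3) and *IFI44L* (3 and 6, then 48, 49 and 51). These 2 also count among the 28 that rose. *BST2* and *LAMP3* likewise passed the filter with shD3 #1 only through the shD3 #1 libraries. So did *IFI44* with each shRNA in the first libraries, *IFI27* with shD3 #4 and *IFI44L* with deep shD3 #1, each through its knockdown libraries.

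*SP100* encodes a component of PML nuclear bodies, which restrict the DNA of incoming viruses. It was at 19.5 cpm in both siControl libraries and at 38.3, 41.4 and 37.2 cpm in siTHUMPD3, a log2 fold change of 1.00 ± 0.10 (adjusted p = 0.000301). Over the 6 shRNA control libraries it ranged from 15.6 to 19.0 cpm, and over the 6 shRNA knockdown libraries from 19.7 to 21.6 cpm. The siTHUMPD3 libraries were thus above all others. The changes with shD3 #1 and shD3 #4 were 0.23 ± 0.09 and 0.30 ± 0.08, and the rise with siD3 #3 exceeded them by 0.79 ± 0.12 and 0.71 ± 0.12.

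*IRF1* encodes a transcription factor that binds ISREs without ISGF3. It was at 19.6 and 17.5 cpm in siControl and at 41.9, 40.7 and 50.6 cpm in siTHUMPD3, a change of 1.26 ± 0.13 (adjusted p = 0.00039). It ranged from 16.1 to 17.2 cpm in the shRNA controls and from 17.3 to 20.3 cpm in the shRNA knockdowns. These ranges did not overlap either, but the changes were 0.18 ± 0.08 and 0.23 ± 0.08 and below the fold threshold. The differences were 1.10 ± 0.13 and 1.04 ± 0.13. In the deep libraries *IRF1* changed by -0.15 ± 0.06 and was not called.

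*SAMD9* encodes a restriction factor of poxviruses. It was at 21.6 and 29.4 cpm in siControl and at 48.0, 52.6 and 52.8 cpm in siTHUMPD3, a change of 1.01 ± 0.14 (adjusted p = 0.00144). The shRNA controls ranged from 23.0 to 26.7 cpm and the shRNA knockdowns from 23.4 to 32.5 cpm, and they overlapped. The rise exceeded that with shD3 #1 by 0.89 ± 0.16 and that with shD3 #4 by 1.08 ± 0.16. *PARP10*, an enzyme that attaches single ADP-ribose units to proteins, was at 1.62 and 1.78 cpm in siControl and at 5.12, 6.21 and 3.72 cpm in siTHUMPD3. Its change was 1.56 ± 0.28 (adjusted p = 0.00482), and the differences were 1.51 ± 0.41 and 1.34 ± 0.39.

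*RSAD2* encodes viperin, which makes a chain-terminating nucleotide, and *CMPK2*, its neighbour on the opposite strand of chromosome 2, encodes a nucleotide kinase that supplies the substrate. *RSAD2* was at 0.168 and 0.142 cpm in siControl and at 2.32, 1.70 and 1.48 cpm in siTHUMPD3, a change of 3.50 ± 0.47 (adjusted p = 0.0012). *CMPK2* was at 0.727 and 0.853 cpm and at 2.37, 2.69 and 1.53 cpm, a change of 1.47 ± 0.36 (adjusted p = 0.0162). Neither pair of groups overlapped. The 2 genes overlap in the annotation, and the sources used here do not state whether counting used the strand, so that their reads may not be separate. *RSAD2* was at 0.130, 0.517 and 1.18 cpm in shD3 #1, which overlapped sh1Control, at 0.153, 0.398 and 0.347 cpm. With shD3 #4 it was at 0.520, 0.3997 and 0.743 cpm, above all of the sh4Control libraries, at 0.215, 0.240 and 0.265 cpm. In deep shD3 #1 it was at 0.359, 0.220 and 0.194 cpm, again above its controls, at 0.068, 0.159 and 0.181 cpm. These are 13 reads or fewer per library, and none of the 3 was tested. *CMPK2* ranged from 0.519 to 2.06 cpm in the shRNA knockdowns, across the range of its controls, and was called in no shRNA comparison. *CMPK2* lost its call without siControl replicate 1 or 2 (1.35 and 1.57) or siTHUMPD3 replicate 2 (1.32).

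*XAF1* encodes an antagonist of the apoptosis inhibitor XIAP. It had no reads in either siControl library and 18, 16 and 8 reads in siTHUMPD3, at least 7.79-fold higher when 3 reads over the control group are taken as the floor. It had 4 reads over the shD3 #1 libraries and 1 over the shD3 #4 libraries, and none in any shRNA control of the first table. In the deep libraries it had none in the controls and 4, 0 and 3 reads with shD3 #1, at least 4.08-fold higher. With *XAF1* at its bound for siD3 #3, the median of the members remained 1.01. It could not have moved, because the fitted change and the bound both lie above it. The call was not made without siTHUMPD3 replicate 1 or 2, where *XAF1* was not tested, or without siControl replicate 1.

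*PARP14* and *DTX3L* act in ADP-ribosylation and ubiquitination, and *STAT2* is the subunit of ISGF3 that activates transcription. *PARP14* was at 109 and 105 cpm in siControl and at 166, 169.5 and 153 cpm in siTHUMPD3 (0.61 ± 0.09, adjusted p = 0.00187). *DTX3L* was at 39.6 and 34.5 cpm and at 61.0, 65.2 and 53.1 cpm (0.69 ± 0.12, adjusted p = 0.00375). *STAT2* was at 34.0 and 33.4 cpm and at 54.0, 54.8 and 43.6 cpm (0.59 ± 0.12, adjusted p = 0.00784). The groups did not overlap, but *PARP14* and *STAT2* were only just past the fold threshold. Neither was called with DESeq2 (0.58 and 0.56) or with no filter beyond 1 count (0.58 and 0.57). *PARP14* was not called without siControl replicate 2 (0.57) or siTHUMPD3 replicate 2 (0.58), and *STAT2* was not called without siControl replicate 1 or 2 or siTHUMPD3 replicate 1 or 2 (0.55 to 0.60). *STAT2* changed by 0.22 ± 0.07 with shD3 #1 and 0.49 ± 0.07 with shD3 #4, and neither difference from siD3 #3 was called (0.39 ± 0.12 and 0.12 ± 0.12). *HERC6*, a ubiquitin ligase next to *HERC5* on chromosome 4, was at 12.6 and 9.81 cpm in siControl and at 23.9, 21.3 and 14.7 cpm in siTHUMPD3 (0.83 ± 0.22, adjusted p = 0.0235). Its call was not kept without siControl replicate 1 or 2 (1.02 and 0.66) or siTHUMPD3 replicate 1 or 2 (0.69 and 0.79).

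**Figure D4:**
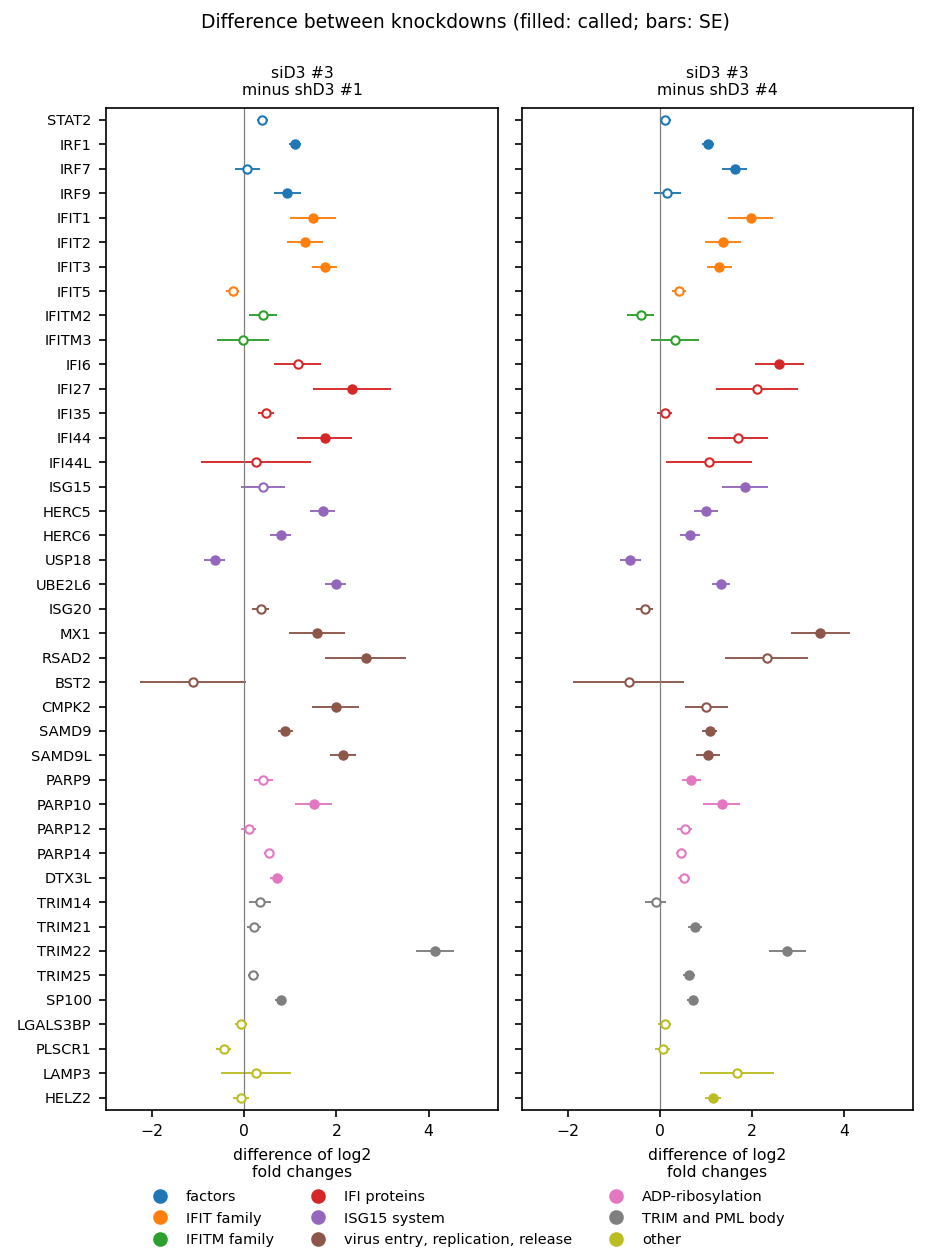
Difference between the log2 fold change with siD3 #3 and that with shD3 #1 (left) or shD3 #4 (right) for each tested member, with its standard error (bars), from 1 fit of the 17 first libraries. Filled points passed both thresholds, colours mark the roles, and *XAF1* is left out. Filled points lie to the right of 0 except for *USP18*.

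The difference itself was tested for every member. The change with siD3 #3 was larger than that with shD3 #1 in 19 of 42 members and smaller in 1 (13.6% and 11.7% of 18672 genes). It was larger than that with shD3 #4 in 20 and smaller in 1 (9.24% and 8.56%). Between the 2 shRNAs, 6 members had a larger and 6 a smaller change with shD3 #1 (12.1% and 13.8%), and with 1 library left out these counts were 4 to 8 and 3 to 9. *ISG15*, *IFI6*, *IFIT5*, *IRF7*, *HELZ2* and *MX1* were the 6 with the larger change, and *SAMD9L*, *IFITM2*, *TRIM22*, *UBE2L6*, *IRF9* and *ISG20* were the 6 with the smaller. Of these, *IFI6*, *ISG15*, *IFITM2*, *UBE2L6* and *IRF9* each lost the call in at least 1 fit that left out a library, and *IRF9* with DESeq2 as well (-0.74). *THUMPD3* itself was called in all 3 differences. It was at -1.56 for siD3 #3 minus shD3 #1, -0.86 for siD3 #3 minus shD3 #4 and 0.70 for shD3 #1 minus shD3 #4. The part of the depth of knockdown in the results for the members was not tested. These 3 differences between knockdowns share libraries. In the fit that gave them, the rises of *IFI44* and *LAMP3* with shD3 #1 (1.01 and 1.21) and of *IFI44*, *IFIT1* and *IFI27* with shD3 #4 (1.05, 0.61 and 1.05) were not called.

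The levels that the changes started from were compared as well. The siControl libraries exceeded the mean of the shRNA controls in 1 of the 42 members, *UBE2L6*, by 0.91 ± 0.13 on the log2 scale (adjusted p = 7.61e-05), and no member was lower (3.38% and 3.88% of all genes). At an unadjusted p under 0.05, 11 members differed. Between sh1Control and sh4Control no member was called, and neither was any of the 18672 genes (0% in each direction), while 3 members had an unadjusted p under 0.05.

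Members of the ISG15 system moved apart from one another. ISG15 is a ubiquitin-like protein that is attached to other proteins by the conjugating enzyme UBE2L6 and the ligase HERC5 and removed by USP18. *ISG15* was at 2.24 and 3.20 cpm in siControl and at 11.7, 12.5 and 7.69 cpm in siTHUMPD3. It was at 1.89, 2.44 and 1.98 cpm in sh1Control and at 4.22, 4.44 and 11.2 cpm in shD3 #1, and between 1.48 and 2.46 cpm in the sh4Control and shD3 #4 libraries. It rose by 1.98 ± 0.28 with siD3 #3 and by 1.57 ± 0.32 with shD3 #1 (adjusted p = 0.00156 and 0.000519). Its change was 0.15 ± 0.22 with shD3 #4 and 0.45 ± 0.16 in the deep libraries, neither of them called. *ISG15* was among the genes singled out after their values were seen.

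*UBE2L6* went up with the siRNA and down with shD3 #1. It was at 13.4 and 19.3 cpm in siControl and at 27.7, 30.7 and 23.7 cpm in siTHUMPD3, a change of 0.76 ± 0.18 (adjusted p = 0.0153). It was at 7.60, 7.33 and 8.48 cpm in sh1Control and at 2.86, 3.05 and 4.43 cpm in shD3 #1, a change of -1.21 ± 0.16 (adjusted p = 8.59e-06). With shD3 #4 it went from 8.98, 9.69 and 9.75 cpm to 6.62, 6.22 and 6.29 cpm, a change of -0.55 ± 0.11 that missed the fold threshold. No knockdown group overlapped its controls. In the deep libraries it was at 10.3, 10.1 and 11.8 cpm and at 4.34, 4.03 and 4.57 cpm, a change of -1.31 ± 0.10 (adjusted p = 4.4e-08). The change with siD3 #3 differed from that with shD3 #1 by 1.98 ± 0.22 and from that with shD3 #4 by 1.33 ± 0.20 (adjusted p = 6.78e-07 and 4.63e-05). The rise with siD3 #3 was not called without siControl replicate 1 (0.50) or siTHUMPD3 replicate 2 (0.67).

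*HERC5* fell with both shRNAs and was not called with the siRNA. It was at 7.65, 8.97 and 7.49 cpm in sh1Control and at 2.27, 2.48 and 3.94 cpm in shD3 #1. It was at 7.15, 7.01 and 8.22 cpm in sh4Control and at 3.92, 4.45 and 4.23 cpm in shD3 #4, and at 9.38, 8.63 and 8.43 cpm in the deep controls against 2.54, 3.07 and 2.80 cpm in deep shD3 #1. All 3 sets of groups were apart. The log2 fold changes were -1.51 ± 0.18, -0.81 ± 0.13 and -1.66 ± 0.11 (adjusted p = 2.36e-06, 1.45e-05 and 9.1e-09). With siD3 #3 the 2 control libraries, at 8.11 and 12.6 cpm, overlapped the knockdown libraries, at 9.86, 10.8 and 13.9 cpm (0.17 ± 0.23). The change with siD3 #3 was above that with shD3 #1 by 1.70 ± 0.28 and above that with shD3 #4 by 1.00 ± 0.26 (adjusted p = 6.01e-05 and 0.00659), the second of which was not called without siControl replicate 1 (0.68).

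*USP18* was the only member that fell with siD3 #3. It was at 8.72 and 9.03 cpm in siControl and at 5.75, 4.74 and 4.48 cpm in siTHUMPD3, a change of -0.82 ± 0.17 (adjusted p = 0.00856). It was between 4.09 and 7.79 cpm in all shRNA libraries, controls and knockdowns alike. The differences from shD3 #1 and shD3 #4 were -0.65 ± 0.23 and -0.64 ± 0.22 (adjusted p = 0.032 and 0.0381). Both were not called in several fits that left out 1 library, siTHUMPD3 replicate 3 among them (-0.58 in each), the second was not called with DESeq2 (-0.64), and the fall itself was not called without siControl replicate 2 (-0.81). *USP18* has a near-identical copy in the genome, *USP41*, and its count is uncertain for that reason.

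*SAMD9L*, the neighbour of *SAMD9* on chromosome 7, rose with siD3 #3 and shD3 #4 and fell in the deep shD3 #1 libraries. It was at 4.31 and 5.61 cpm in siControl and at 16.2, 18.3 and 17.3 cpm in siTHUMPD3, and at 4.41, 5.18 and 3.71 cpm in sh4Control and 6.62, 8.05 and 8.00 cpm in shD3 #4. The changes were 1.81 ± 0.16 and 0.77 ± 0.14 (adjusted p = 0.000173 and 6.73e-05). The deep controls were at 4.23, 3.29 and 4.53 cpm and the deep shD3 #1 libraries at 1.63, 1.76 and 2.24 cpm, a change of -1.09 ± 0.17 (adjusted p = 6.41e-05). In the first libraries shD3 #1, at 4.03, 2.58 and 4.62 cpm, overlapped sh1Control, at 4.08, 5.51 and 4.11 cpm (-0.32 ± 0.20). The 2 sets of shD3 #1 libraries thus differed for this gene in whether it was called, and that difference was not tested, because the tables were made separately. The change with siD3 #3 exceeded that with shD3 #1 by 2.14 ± 0.27 and that with shD3 #4 by 1.05 ± 0.26 (adjusted p = 3.28e-06 and 0.00413). The second was not called without siControl replicate 1, at 0.84.

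**Figure D5:**
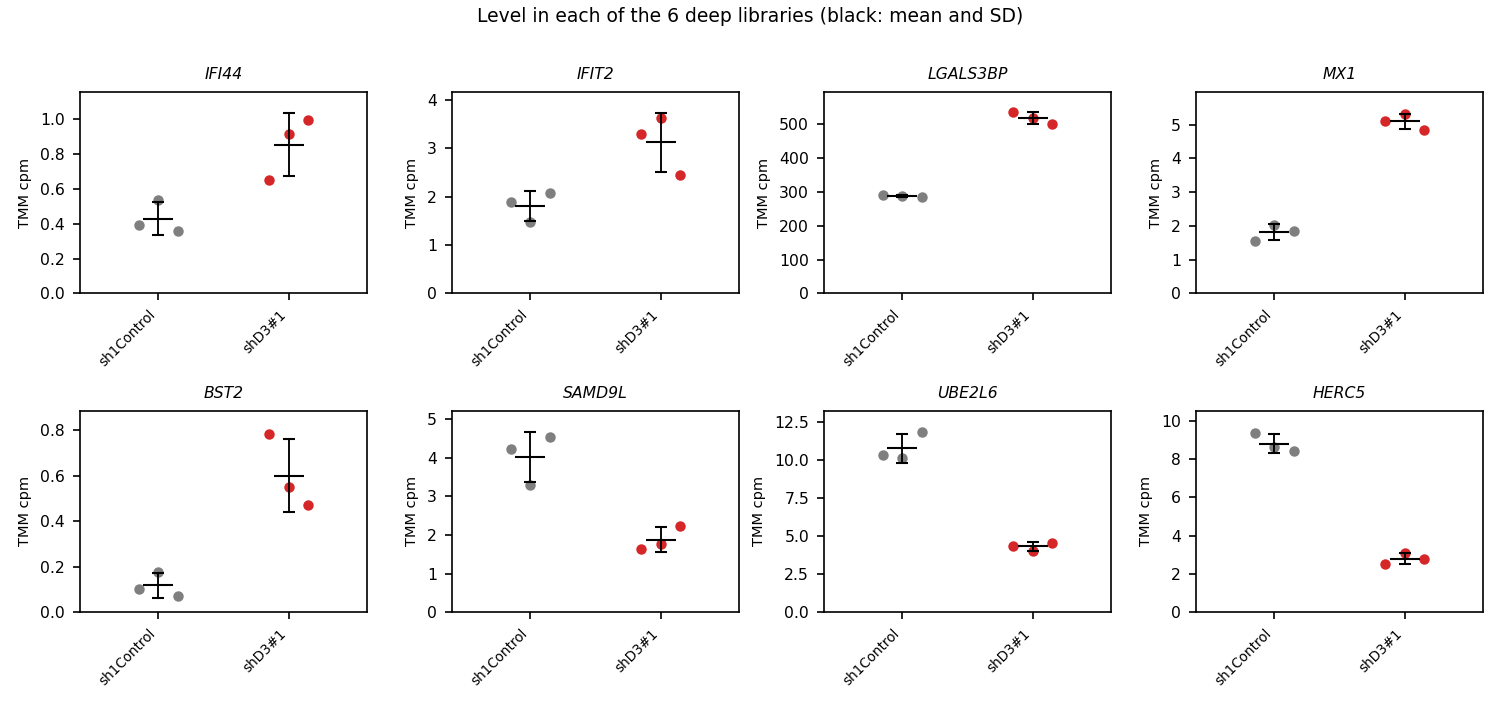
TMM-normalised level (cpm, linear axis from 0) of 8 members in each of the 6 deep libraries, grey for sh1Control and red for shD3#1, with the mean and SD in black (n = 3). The 2 groups do not overlap for any of the 8 genes, with *SAMD9L*, *UBE2L6* and *HERC5* lower after the knockdown and the other 5 higher.

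*MX1* and *TRIM22* were among the members with the largest changes with siD3 #3 and differed between the shRNAs in opposite directions. They were also singled out after their values were seen. *MX1* encodes a dynamin-like GTPase that blocks influenza viruses. It was at 1.29 and 0.924 cpm in siControl and at 16.9, 18.4 and 9.72 cpm in siTHUMPD3 (3.73 ± 0.36, adjusted p = 0.000254). It was at 1.38, 1.36 and 1.64 cpm in sh1Control and at 4.09, 4.50 and 12.3 cpm in shD3 #1 (2.15 ± 0.37, adjusted p = 0.000111), and it rose by 1.49 ± 0.14 in the deep libraries, from 1.56, 2.02 and 1.84 cpm to 5.12, 5.31 and 4.85 cpm. Those groups did not overlap. In shD3 #4, at 1.32, 2.00 and 1.66 cpm, it overlapped sh4Control, at 1.07, 1.39 and 1.70 cpm, and its change with shD3 #1 was larger than that with shD3 #4 by 1.91 ± 0.58 (adjusted p = 0.0128). *TRIM22*, an E3 ubiquitin ligase of the tripartite motif family, was at 2.46 and 2.49 cpm in siControl and at 35.9, 40.0 and 21.6 cpm in siTHUMPD3 (3.71 ± 0.31, adjusted p = 0.000119). It was at 1.89, 2.56 and 3.02 cpm in sh1Control and at 1.95, 1.55 and 2.17 cpm in shD3 #1 (-0.42 ± 0.23, not called). It was at 1.56, 1.30 and 2.60 cpm in sh4Control and at 3.59, 3.14 and 3.66 cpm in shD3 #4 (0.96 ± 0.21, adjusted p = 0.00061). Its change with siD3 #3 was larger than that with shD3 #1 by 4.15 ± 0.41 and than that with shD3 #4 by 2.77 ± 0.40 (adjusted p = 1.22e-07 and 2.29e-05). Its change with shD3 #1 was below that with shD3 #4 by -1.38 ± 0.42 (adjusted p = 0.0124).

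Replicate 3 of shD3 #1, the library with the fewest counts, was the highest of the 3 in 8 of the 11 members that rose with that shRNA. Without it, 12 members rose, the same 11 among them.

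The remaining members are given by their groups. Counts by group stand against 12.5% of all genes higher with siD3 #3, 14.5% with shD3 #1, 8.00% with shD3 #4 and 15.0% in the deep libraries. Of the factors, *IRF7*, the amplifier of interferon gene expression, rose with siD3 #3 (1.23 ± 0.18) and shD3 #1 (1.17 ± 0.19) and was at -0.38 ± 0.18 with shD3 #4. *IRF9*, the DNA-binding subunit of ISGF3, rose with siD3 #3 (0.80 ± 0.22) and shD3 #4 (0.65 ± 0.19). Without either siControl library (1.06 and 0.59), or without siTHUMPD3 replicate 1 or 2 (0.80 and 0.76), *IRF9* was not called with siD3 #3, and without shD3 #4 replicate 1 (0.41) it was not called with shD3 #4. With DESeq2 it was called in neither (0.77 and 0.63, adjusted p = 0.0712 and 0.0606). All 4 factors rose with siD3 #3, with 1 of 4 doing so in each of shD3 #1 and shD3 #4, and none of the 3 tested in the deep libraries. The shRNA counts are too small to be set apart from the shares of all genes. *STAT2* and *IRF9* were the 2 that DESeq2 did not call with siD3 #3. *IRF7* and *IFI27* had 0 to 3 reads in every deep library, although they had 36 to 148 and 3 to 66 reads in the first ones. The reason was not tested, and the deep values of both are not read here.

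Of the IFIT family, 3 of 4 rose with siD3 #3, 2 with shD3 #1, 3 with shD3 #4 and 1 in the deep libraries (12.5%, 14.5%, 8.00% and 15.0% of all genes). *IFIT1* rose by 2.58 ± 0.40, 1.09 ± 0.30 and 0.62 ± 0.15 in the first libraries, the last of which was not called in the 1 fit of all 17 (0.61, adjusted p = 0.191), and *IFIT3* by 1.95 ± 0.21 with siD3 #3 and 0.67 ± 0.14 with shD3 #4. *IFIT5* was called in none, with changes from -0.21 to 0.54. *IFIT1*, *IFIT2* and *IFIT3* overlap *LIPA* on the other strand. The IFITM proteins block fusion of viruses with the cell membrane, and none of the 3 was called in any comparison. *IFITM1* had too few reads to be tested outside the deep libraries. It had 1 and 0 reads in siControl and 13, 8 and 3 in siTHUMPD3. With shD3 #4 it had 5, 7 and 4, against 0, 2 and 2 in sh4Control. With shD3 #1 it had 0, 5 and 5, against 3, 5 and 5 in sh1Control. Of the 5 IFI proteins, 4 rose with siD3 #3 by 2.47 to 3.17 (12.5% of all genes rose), whereas *IFI35* was at 0.32 ± 0.13. *IFI6*, which holds back the replication of flaviviruses, rose by 2.47 ± 0.47 with siD3 #3 and by 1.32 ± 0.21 with shD3 #1, and *IFI27* by 3.17 ± 0.65 with siD3 #3 and 1.06 ± 0.40 with shD3 #4. *IFI44L*, the neighbour of *IFI44* on chromosome 1, rose by 3.16 ± 0.40 with siD3 #3 and by 1.40 ± 0.42 in the deep libraries. It had too few reads to be tested with either shRNA in the first libraries. It had 3, 0 and 3 reads in sh1Control and 7, 12 and 17 in shD3 #1. In sh4Control it had 3, 4 and 1 reads, and in shD3 #4 13, 12 and 9. *IFI6* and *IFI27* were not called with siD3 #3 without either siControl library, at 2.41 and 2.53 for *IFI6* and at 3.00 and 3.38 for *IFI27*. The call of *IFI27* with shD3 #4 was not made with DESeq2 (1.07) or without sh4Control replicate 2 or 3 (0.86 and 1.01) or shD3 #4 replicate 2 or 3 (0.66 and 1.12). That of *IFI44L* was not made without deep shD3 #1 replicate 2 (1.01). *IFI27*, with 10, 6 and 7 reads in sh4Control, passed the filter on low counts there only through the shD3 #4 libraries. *IFI44L* passed it in the deep comparison only through the deep shD3 #1 libraries.

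Of the effectors on virus entry, replication and release, *BST2* (tetherin, which holds budding virus at the cell surface) rose with shD3 #1 by 2.67 ± 0.37 and in the deep libraries by 2.34 ± 0.42. Its level was low, from 0.153, 0.170 and 0.248 cpm in sh1Control to 1.17, 1.29 and 1.28 cpm in shD3 #1. In both of these comparisons it passed the filter on low counts only through the knockdown libraries, and with shD3 #4 it was not tested. In siTHUMPD3 it was at 0.725, 0.937 and 0.0509 cpm, with replicate 3 below both controls (1.55 ± 1.00, adjusted p = 0.274). *ISG20*, an exonuclease, rose with shD3 #4 (0.71 ± 0.11) and in the deep libraries (0.64 ± 0.14). The latter was not called without deep sh1Control replicate 2 (0.55) or deep shD3 #1 replicate 1 (0.45).

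*PARP9*, the partner of DTX3L, rose with siD3 #3 (0.94 ± 0.21) and in the deep libraries (0.70 ± 0.06), and the former was not called without siControl replicate 1 or 2 (0.92 and 0.95). *PARP12* was called in no comparison. Of the TRIM and PML body group, *TRIM14*, *TRIM21* and *TRIM25*, which act in RNA and antibody sensing, were called in no comparison, with changes from -0.46 to 0.56. *HELZ2*, a helicase and transcriptional coactivator, rose by 1.06 ± 0.14 with siD3 #3, 1.14 ± 0.10 with shD3 #1 and 0.90 ± 0.06 in the deep libraries, and was at -0.09 ± 0.10 with shD3 #4. Its change with shD3 #1 exceeded that with shD3 #4 by 1.22 ± 0.17 (adjusted p = 7.05e-06). *LAMP3* rose with shD3 #1 (1.23 ± 0.43) at levels under 1.5 cpm, and lost that call with DESeq2 (1.27) and without sh1Control replicate 2 (0.87) or shD3 #1 replicate 2 (1.10). It passed the filter on low counts there only through the shD3 #1 libraries, and with shD3 #4 it was not tested. *PLSCR1*, a phospholipid scramblase, was called in none. In the annotation 10 members overlap another gene on their own strand and 22 one on the other strand, among them *MX1* with *TMPRSS2*, and their reads may not be separate.

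Genes of the pathway outside the members were counted too. Their counts stand against 12.5% of all genes higher and 9.42% lower with siD3 #3, 14.5% and 14.6% with shD3 #1, 8.00% and 4.49% with shD3 #4, and 15.0% and 14.1% in the deep libraries. Of 9 interferon genes, only *IFNE* had enough reads to be tested. It had 34 and 30 reads in siControl and 89, 68 and 147 in siTHUMPD3 (1.39 ± 0.33, adjusted p = 0.0156), and was not called with either shRNA. *IFNA1*, *IFNG* and *IFNL3* had no reads in any first library. *IFNA2* had 1 and 0 reads in siControl, 2, 4 and 3 in siTHUMPD3 and none in the shRNA samples of the first table, whereas the deep ones had 0, 1 and 0 reads in the controls and 1, 0 and 2 with shD3 #1. *IFNB1* had 2 reads in siTHUMPD3 replicate 1 and none elsewhere in the first libraries. Of the 6 receptor genes, 1 rose and 1 fell with siD3 #3, 2 rose and 1 fell with shD3 #1, and none was called with shD3 #4 or in the deep libraries. None of *JAK1*, *JAK2* and *TYK2* was called in the 4 comparisons. Of the 7 factors outside the members, 2 rose with siD3 #3, *STAT3* and *IRF5*, and none was called in the shRNA comparisons. Of the 6 negative regulators, 1 rose with siD3 #3, 1 rose and 1 fell with shD3 #1, none was called with shD3 #4, and 1 rose and 2 fell in the deep libraries.

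*SOCS1*, an inhibitor of the JAK kinases, was chosen after its values were seen. It was at 0.255, 0.341 and 0.248 cpm in sh1Control and at 7.08, 7.60 and 7.97 cpm in shD3 #1. The groups did not overlap, and it rose by 4.74 ± 0.22 (adjusted p = 9.45e-11) and by 2.97 ± 0.23 in the deep libraries. With siD3 #3 it rose by 2.20 ± 0.59, which was smaller than with shD3 #1 by -2.51 ± 0.70 (adjusted p = 0.00737). With shD3 #1 and siD3 #3 it passed the filter on low counts only through the knockdown libraries. Its controls had 5, 6 and 5 reads in sh1Control and 3 and 4 in siControl. With shD3 #4 it ranged from 0.286 to 0.378 cpm, against 0.288 to 0.371 cpm in sh4Control, and was not tested.

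Of the 13 sensors and effectors of double-stranded RNA, 7 rose and none fell with siD3 #3 (12.5% and 9.42% of all genes). With shD3 #1 1 rose and 1 fell of 10 tested, and with shD3 #4 1 rose of 10, shares near those of all genes (14.5%, 14.6% and 8.00%). In the deep libraries 3 rose and 1 fell of 12 (15.0% and 14.1%). *RIGI*, the cytoplasmic sensor, rose in 3 comparisons, by 1.47 ± 0.25, 0.66 ± 0.20 and 0.73 ± 0.06 with siD3 #3, shD3 #1 and deep shD3 #1. *TLR3*, the endosomal receptor of double-stranded RNA, rose by 1.51 ± 0.22 with siD3 #3 and 0.78 ± 0.13 with shD3 #4, whereas its change was -1.69 ± 0.20 with shD3 #1 and -1.44 ± 0.15 in the deep libraries, all 4 called. Its change with siD3 #3 was above that with shD3 #1 by 3.21 ± 0.30 (adjusted p = 4.78e-08). Of 12 genes of the MHC class I pathway, 7 rose with siD3 #3, none rose and 2 fell with shD3 #1, and 2 rose with shD3 #4. Of all genes, 12.5% rose with siD3 #3, 14.5% rose and 14.6% fell with shD3 #1, and 8.00% rose with shD3 #4. The share that fell with shD3 #1 was near that of all genes. Among the deep libraries, 2 of the 12 had enough reads to be tested, and *HLA-B* had no reads, so that its counts for this pathway are not read. These genes were outside the 46, and their part in the changes of the members was not tested.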

How the data were processed

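The authors prepared directional libraries from rRNA-depleted total RNA, trimmed reads with Trimmomatic 0.40 and aligned them to GRCh38.p14 with STAR 2.7.10a, whose gene counts they deposited as 2 tables of raw counts per gene. The strand column used is not given in the sources used here. The first table (17 libraries) carries Ensembl identifiers and the deep table (6 libraries) symbols, matched to symbols with GENCODE and RefSeq names. The members, gene lists and tests were chosen with earlier results of these data known. Counts were fitted over all genes with edgeR 4.0.16 (R 4.3.3): filterByExpr, TMM and the quasi-likelihood test, each knockdown with its own controls. Differences between knockdowns and between controls came from 1 fit of the 17 first libraries. Printed cpm were TMM-normalised within each table, and levels were not compared between tables. Genes were described in full where called higher in all 4 comparisons, higher with siD3 #3 alone (the 10 most significant), in opposite directions, or lower; others are marked as chosen after their values were seen. Same-numbered libraries did not deviate together (correlations -0.137 to 0.157). Alternatives were DESeq2 1.42.0, its size factors, other filters, thresholds and fits, and each library left out. The script was tested on simulated data.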

Additional observations from a re-analysis of the deposited data

Results flagged for a closer look

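The changes of members differed between knockdowns by the test of the difference itself, in edgeR's quasi-likelihood fit of the 17 first libraries. The differences of the log2 fold changes that passed both thresholds, siD3 #3 minus shD3 #1, were 4.15 for *TRIM22*, 2.63 for *RSAD2*, 2.34 for *IFI27*, 2.14 for *SAMD9L*, 1.98 for *CMPK2*, 1.98 for *UBE2L6*, 1.75 for *IFI44*, 1.74 for *IFIT3*, 1.70 for *HERC5*, 1.57 for *MX1*, 1.51 for *PARP10*, 1.49 for *IFIT1*, 1.32 for *IFIT2*, 1.10 for *IRF1*, 0.93 for *IRF9*, 0.89 for *SAMD9*, 0.79 for *SP100*, 0.78 for *HERC6*, 0.70 for *DTX3L* and -0.65 for *USP18*.

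The differences of siD3 #3 minus shD3 #4 that passed both thresholds were 3.49 for *MX1*, 2.77 for *TRIM22*, 2.60 for *IFI6*, 1.97 for *IFIT1*, 1.84 for *ISG15*, 1.62 for *IRF7*, 1.38 for *IFIT2*, 1.34 for *PARP10*, 1.33 for *UBE2L6*, 1.29 for *IFIT3*, 1.15 for *HELZ2*, 1.08 for *SAMD9*, 1.05 for *SAMD9L*, 1.04 for *IRF1*, 1.00 for *HERC5*, 0.76 for *TRIM21*, 0.71 for *SP100*, 0.69 for *PARP9*, 0.65 for *HERC6*, 0.64 for *TRIM25* and -0.64 for *USP18*. They share the siD3 #3 and siControl libraries with the first set.

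Between the shRNAs, the differences of shD3 #1 minus shD3 #4 were 1.91 for *MX1*, 1.56 for *IRF7*, 1.44 for *IFI6*, 1.44 for *ISG15*, 1.22 for *HELZ2*, 0.67 for *IFIT5*, -0.66 for *UBE2L6*, -0.68 for *ISG20*, -0.77 for *IRF9*, -0.81 for *IFITM2*, -1.09 for *SAMD9L* and -1.38 for *TRIM22*. Among the differences from shD3 #1, those of *IFI27*, *IFI44*, *IFIT1*, *IFIT2*, *IRF9*, *MX1*, *RSAD2*, *HERC6* and *USP18* lost the call in at least 1 fit that left out a library. *RSAD2* did so without siControl replicate 1 or 2 or sh1Control replicate 2 or 3 (2.40 to 2.74). Among those from shD3 #4, *HERC5*, *HERC6*, *IFIT2*, *ISG15*, *PARP9*, *PARP10*, *SAMD9L*, *TRIM25* and *USP18* did, that of *HERC6* in 7 of 17 fits (0.47 to 0.64). Between the shRNAs, *IFI6*, *ISG15*, *IFITM2*, *UBE2L6* and *IRF9* did. In these groups of 2 or 3 libraries no single library was tested for lying apart from the rest.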

How the results depend on the processing

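The changes and differences of single members that were called above were followed under the alternatives, and those not tested under an alternative were left out. Of them, 1982 kept their direction and side of the threshold, 231 kept their direction and lost the call, and none reversed. The log2 threshold of 1 reuses the same estimates, so that no change could reverse there. The fits with 1 library left out share their other libraries with the fits above. For the differences and control levels, some of them left out a library that is not in the contrast. The estimate could hardly move there, and these fits are counted too. With DESeq2, 25 members rose with siD3 #3, and with a log2 threshold of 1 or glmTreat 20 and 19 did. With a log2 threshold of 1, 3 members rose with shD3 #4 and 4 in the deep libraries. With glmTreat these counts were 1 and 5. Under both, 0 fell with siD3 #3 and 0 with shD3 #4. With the threshold of 1, the differences between siD3 #3 and each shRNA had 0 lower members, that between the shRNAs had 2, and siControl exceeded the shRNA controls in 0. DESeq2 gave 0 lower members for siD3 #3 minus shD3 #4. With at least 10 counts in every library, 1 member was lower in siControl. The count of lower members was also 0 with the replicate block for siD3 #3 minus either shRNA, and the block gave 30 higher members with siD3 #3, all 28 among them. The block matches libraries by replicate number, and siTHUMPD3 replicate 3 has no siControl library to match. It therefore does not enter the change with siD3 #3 there, and the setting is close to leaving that library out. In the other comparisons it gave 11, 10 and 9. The numbers do not pair the samples.

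With each library left out in turn, 20 to 29 members rose and 0 to 1 fell with siD3 #3, 10 to 14 rose and 2 fell with shD3 #1, 9 to 11 rose and 1 to 2 fell with shD3 #4, and 8 to 11 rose and 3 fell in the deep libraries. The change was larger with siD3 #3 than with shD3 #1 in 13 to 22 members and smaller in 0 to 1, and larger than with shD3 #4 in 17 to 24 and smaller in 0 to 1. Between the shRNAs 4 to 8 were larger and 3 to 9 smaller. In siControl, 1 to 2 were higher and 0 to 1 lower than in the shRNA controls, and between the shRNA controls 0 differed. The difference of *MX1* between siD3 #3 and shD3 #1 (1.57) was not called in most of these fits. Where 1 siControl library is left, it is assumed to vary as the other groups do. The cause of these losses was not tested. With at least 10 counts required in every library, *XAF1*, *RSAD2*, *IFI44*, *IFI44L*, *IFI27*, *CMPK2*, *BST2* and *LAMP3* were each not tested in at least 1 comparison or difference in which they had been called, and at this depth those calls rest on low counts.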
